A study of Mus musculus with 5 samples.

Results

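C7 is one of the myeloid subclusters that the study's authors named in their deposited table of cells, and it is described here as the C7 foreign body macrophages. All cells that carry the deposited name C7 in the 4 granuloma libraries were taken, which gave 8157 of the 20902 myeloid cells of these libraries, of 32152 granuloma cells and of 41191 cells in all. The myeloid class is the authors' class of monocytes, macrophages and dendritic cells. No value computed here entered the choice of cells.

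The cells came from mouse foreign body granulomas, nodules that form around implanted material. The libraries were silk at 4 weeks, silk at 2 weeks, sponge at 4 weeks and sponge at 2 weeks, and a control library of thioglycollate-elicited macrophages, cells drawn into the peritoneal cavity by a sterile irritant. Each group was 1 library, and the labels used here give no strain, genotype, sex, age or number of animals for any of them. No test between groups was therefore made, and every 95% interval below covers counting error only.

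Macrophages that meet an object too large to engulf stay on its surface, secrete proteases and acid against it, and can fuse into multinucleated foreign body giant cells. Many of them switch on a programme of lipid uptake and lysosomal breakdown that is also known from atherosclerotic plaques and adipose tissue, where such cells are called lipid-associated macrophages. Mmp12, the macrophage elastase after which the subcluster is named here, is a metalloproteinase that cuts elastin and other matrix proteins, and Itgax is the integrin chain CD11c, carried by many macrophages of inflamed tissue and by dendritic cells.

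The C7 sums held 4636693 and 34499397 UMIs (unique molecular identifiers, each a captured transcript) in silk at 4 and 2 weeks, and 14011883 and 10811796 in sponge at 4 and 2 weeks. The median C7 cell held between 4815 and 7009 UMIs, against 948 to 1720 in C6, the next largest subcluster in 3 of the 4 libraries. The median mitochondrial share of C7 was 7.35% in sponge at 4 weeks and between 3.68% and 4.61% in the other 3 libraries. Of the C7 cells, 47 had a barcode that also occurred in another library. No doublet caller was run on the cells.

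The C7 cells carried macrophage genes in every library. Csf1r, the receptor for the macrophage growth factor, stood at 528 and 501 CPM (counts scaled to the same total in every sum) in silk at 4 and 2 weeks and at 359 and 332 CPM in sponge at 4 and 2 weeks. C1qa, a subunit of complement C1q that macrophages make, stood between 813 and 1035 CPM, and Adgre1, the gene of F4/80, between 179 and 239 CPM. The name Itgax is shared with dendritic cells, but their defining genes were near 0. Flt3, the receptor for a dendritic cell growth factor, had 0 and 0.377 CPM in silk at 4 and 2 weeks and 0.571 and 0 CPM in sponge at 4 and 2 weeks, where a count of 0 allows up to 0.647 CPM in silk at 4 weeks and 0.277 CPM in sponge at 2 weeks. Ccr7, which mature dendritic cells use to migrate, stayed at or under 0.928 CPM in C7 in all 4 libraries, against 1036 to 2022 CPM in the deposited subcluster C9. Summed, the 11 dendritic cell markers reached 55.6 to 81.5 CPM in C7. The sum of the 14 macrophage identity genes was 19113 to 25133 CPM in C7, against 1174 to 2630 CPM in C9. In the deposited subcluster C3 it was 18820 to 20994 CPM, below C7 in both silk libraries and above it in both sponge libraries. Mrc1, Fcgr1 and Cd163 of that list stood lower in C7 than in the other myeloid cells. The macrophage part of the label therefore matched the sum of its markers, which did not set C7 apart from C3.

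Markers of other cell classes were present in C7 at low levels that differed between libraries. The summed fibroblast markers stood at 60.4 and 105 CPM in silk at 4 and 2 weeks and at 546 and 356 CPM in sponge at 4 and 2 weeks, against 0.652 CPM in the control myeloid cells. The summed neutrophil markers stood between 98.1 and 194 CPM, the endothelial markers between 17.1 and 27.7 CPM, and the T and NK cell markers between 126 and 250 CPM. Most of the T and NK cell sum was Il7r, which stood at 106 to 236 CPM in C7 and at 230 CPM in the control myeloid cells. The summed red cell markers differed most, at 2.80 and 116 CPM in C7 of silk at 4 and 2 weeks and at 0.428 and 2.03 CPM in C7 of sponge at 4 and 2 weeks. In silk at 2 weeks fibroblasts held 188 CPM of them, and the part of red cell material in the values of Hp and Hmox1 given later was not tested.

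C7 made up 44.8% of the myeloid cells in silk at 4 weeks (exact 95% interval 41.9 to 47.8, 496 of 1106 cells) and 59.2% in silk at 2 weeks (58.1 to 60.3, 4461 of 7532). It made up 43.0% in sponge at 4 weeks (41.6 to 44.4, 2078 of 4834) and 15.1% in sponge at 2 weeks (14.3 to 15.9, 1122 of 7430). The control library held 4 C7 cells, or 0.0506% of 7912 myeloid cells. The sponge library at 2 weeks was thus the one with the low share, and the other 3 granuloma libraries lay well above it.

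At 2 weeks the C7 share was 44.1 percentage points higher in silk than in sponge (Newcombe 95% interval 42.7 to 45.5). At 4 weeks the difference was 1.86 points, with an interval of -1.37 to 5.11 that holds 0. Counting only cells with at least 1000 UMIs gave 54.2% in silk and 49.3% in sponge at 4 weeks, a difference of 4.88 points (1.30 to 8.43), so that the difference at 4 weeks depended on how shallow cells were treated. Between the times the share was 14.4 points lower at 4 weeks than at 2 weeks in silk (-17.5 to -11.2). In sponge it was 27.9 points higher at 4 weeks than at 2 weeks (26.3 to 29.5).

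The rest of the myeloid class differed most in sponge at 2 weeks. There C4 made up 34.2% of myeloid cells, against 1.27% to 1.85% in the other 3 granuloma libraries, and C5 made up 18.3%, against 1.38% to 9.06%. C6 made up 28.5% and 28.6% in silk at 4 and 2 weeks and 33.3% and 19.8% in sponge at 4 and 2 weeks. Shares sum to the whole, so a lower C7 share and a higher share of other subclusters cannot be told apart from a change in either alone.

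**Figure D1:**
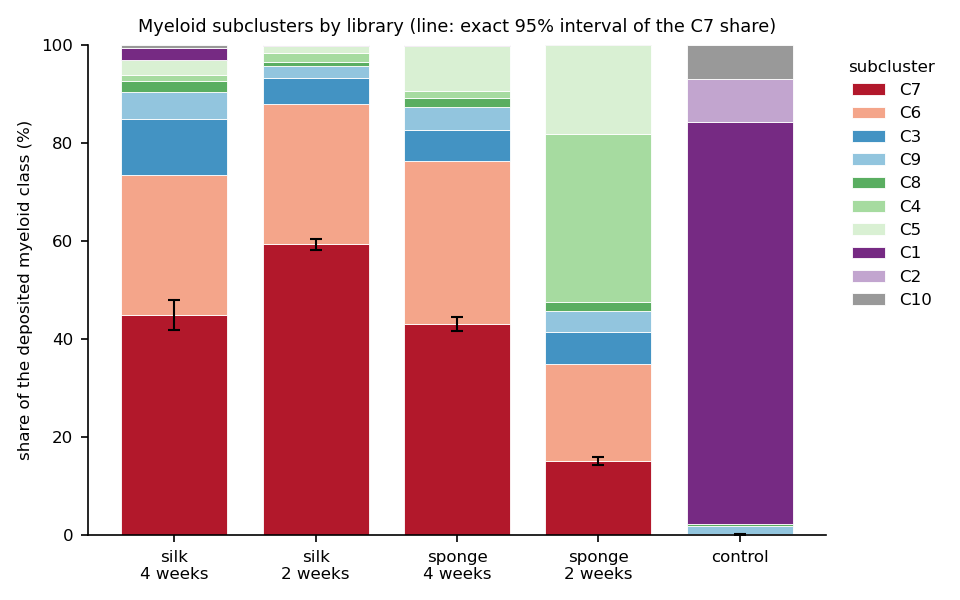
Stacked bars give the share of each deposited subcluster (%, vertical axis) in the myeloid class of the 4 granuloma libraries and the control library, and the black line is the exact 95% interval of the C7 share. C7 reached 44.8%, 59.2% and 43.0% in silk at 4 weeks, silk at 2 weeks and sponge at 4 weeks, and 15.1% in sponge at 2 weeks, where C4 and C5 filled most of the difference.

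All 7 marker genes stood higher in C7 than in the other myeloid cells of the same library, by at least 2-fold in each of the 4 libraries. The cells were clustered on their genes, so these values describe C7 and test nothing. Counts here were made on log2 ratios with 10 CPM added to both sides, over genes with 20 or more UMIs. Of all genes so measured, 2.11% and 0.582% stood at least 2-fold higher in C7 in silk at 4 and 2 weeks, and 1.26% and 0.892% in sponge at 4 and 2 weeks. The median of the 7 log2 ratios was 2.5 and 1.55 in silk at 4 and 2 weeks and 2.46 and 2.51 in sponge at 4 and 2 weeks, against medians of -0.03 to -0.01 over all genes.

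Mmp12 (chr9:7344381-7369499, plus strand, GRCm38) had 5514 and 3264 CPM in C7 of silk at 4 and 2 weeks and 3777 and 2983 CPM in C7 of sponge at 4 and 2 weeks. In the other myeloid cells it had 482 and 614 CPM in silk at 4 and 2 weeks and 262 and 311 CPM in sponge at 4 and 2 weeks, and 483 CPM in the control myeloid cells. Every C7 value was above every other value, and silk at 4 weeks was the highest. The log2 ratio of silk over sponge was 0.55 at 4 weeks (95% interval 0.52 to 0.57) and 0.13 at 2 weeks (0.11 to 0.15). For 4 weeks over 2 weeks it was 0.76 in silk (0.74 to 0.78) and 0.34 in sponge (0.32 to 0.36).

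Lpl (chr8:68880491-68907448, plus strand), the lipase that releases fatty acids from lipoproteins, had 4454 and 2350 CPM in C7 of silk at 4 and 2 weeks and 3643 and 3749 CPM in C7 of sponge at 4 and 2 weeks. The other myeloid cells of these libraries had 608 to 883 CPM and the control myeloid cells 1235 CPM. Cd36 (chr5:17781690-17888801, minus strand), a scavenger receptor for oxidised lipoproteins and fatty acids, stood between 1907 and 2437 CPM in C7 and between 356 and 937 CPM in the other myeloid cells. Lpl varied between the C7 libraries more than Cd36 did, and its lowest level was in silk at 2 weeks.

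Ctsk (chr3:95499256-95509362, plus strand), the collagen-cutting cathepsin of osteoclasts, had 1910 and 1221 CPM in C7 of silk at 4 and 2 weeks and 2657 and 907 CPM in C7 of sponge at 4 and 2 weeks. The other myeloid cells had 151 to 394 CPM, and fibroblasts, which also express it, 342 to 824 CPM. Ctsk was higher at 4 weeks than at 2 weeks in both materials, with a log2 ratio of 0.65 in silk (0.61 to 0.68) and 1.55 in sponge (1.52 to 1.58).

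Itgax (chr7:128129547-128150657, plus strand) had 659 and 329 CPM in C7 of silk at 4 and 2 weeks and 371 and 249 CPM in C7 of sponge at 4 and 2 weeks, against 37.1 to 150 CPM in the other myeloid cells and 22.9 CPM in the control. It was higher in silk than in sponge at both times, with a log2 ratio of 0.83 at 4 weeks (0.76 to 0.89) and 0.40 at 2 weeks (0.34 to 0.46). Rnf128 (chrX:139563316-139673145, plus strand), an E3 ubiquitin ligase known from T cells as GRAIL, varied little between the libraries, between 417 and 573 CPM in C7 and between 77.4 and 177 CPM in the other myeloid cells. Mt3 (chr8:94152607-94154146, plus strand), a metallothionein that binds zinc and copper and is best known from the brain, had 138 and 93.3 CPM in C7 of silk at 4 and 2 weeks and 346 and 110 CPM in C7 of sponge at 4 and 2 weeks. Its level in sponge at 4 weeks stood apart, with a log2 ratio of 1.66 over sponge at 2 weeks (1.57 to 1.75) and of -1.32 for silk over sponge at 4 weeks (-1.44 to -1.20). Few cells carried these values, since Mt3 had no UMI in 78.0% to 92.8% of C7 cells and the top 10% of cells held 91.0% to 100% of its UMIs. With 10 CPM added, the sponge ratio was 1.58 for all C7 cells, 2.36 without the 5% of cells with the most UMIs and 2.90 without cells that held 3 or more UMIs of other classes.

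The sum over the other myeloid cells includes C8, a small subcluster with cycling genes that held 61 cells in silk at 2 weeks, 90 in sponge at 4 weeks and 133 in sponge at 2 weeks. In silk at 2 weeks C8 had 2672 CPM of Mmp12 and 516 CPM of Rnf128, against 3264 and 536 CPM in C7. Its levels of Cd36 and Ctsk, 2600 and 2389 CPM, were above those of C7. In sponge at 4 and 2 weeks C8 had 750 and 713 CPM of Mmp12, below C7, and 994 and 1746 CPM of Ctsk, above C7 at 2 weeks.

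**Figure D2:**
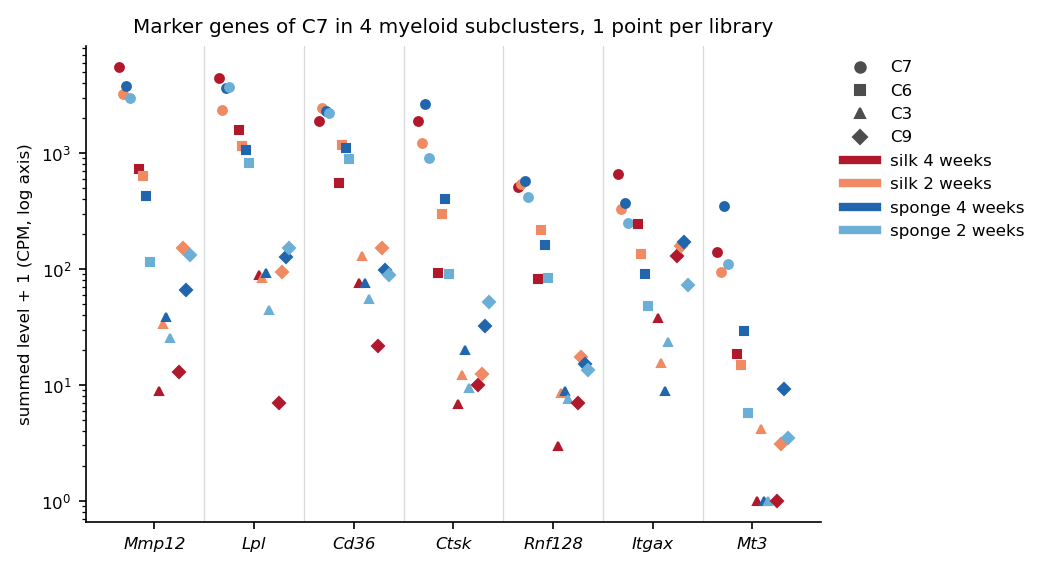
Summed level of the 7 marker genes (CPM plus 1, log axis) in C7 and in the subclusters C6, C3 and C9, with 1 point per granuloma library. C7 (circles) was the highest of the 4 subclusters for each gene within each library, with Mmp12 between 2983 and 5514 CPM in C7, and Mt3 in sponge at 4 weeks stood above the other 3 C7 values.

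The markers were unevenly spread among C7 cells. Mmp12 had no UMI in 28.4% and 44.8% of C7 cells in silk at 4 and 2 weeks and in 41.4% and 46.3% in sponge at 4 and 2 weeks. The mean C7 cell held 51.5 and 25.2 Mmp12 UMIs in silk at 4 and 2 weeks and 25.5 and 28.7 in sponge at 4 and 2 weeks, while the median cell held 9 in silk at 4 weeks and 1 in each of the other 3 libraries. The 10% of C7 cells with the most Mmp12 UMIs held between 66.9% and 76.5% of them. The cells with an Mmp12 UMI were also the deeper ones, with a median of 8025 against 5830 total UMIs in silk at 4 weeks and 9197 against 5518 in sponge at 2 weeks.

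To compare cells at 1 depth, each cell was thinned to 1000 UMIs, which left out 3 C7 cells in silk at 4 weeks and 3 to 11 in each of the other libraries. Of the other myeloid cells it left out 193 of 610 and 637 of 3071 in silk at 4 and 2 weeks. In sponge at 4 and 2 weeks it left out 630 of 2756 and 495 of 6308. Most of these were C6 cells. An Mmp12 UMI then remained in 56.0% (exact interval 51.5 to 60.4) and 36.3% (34.9 to 37.7) of C7 cells in silk at 4 and 2 weeks. In sponge at 4 and 2 weeks it remained in 43.8% (41.6 to 46.0) and 35.8% (33.0 to 38.7). In the other myeloid cells the same share was 10.8% and 12.4% in silk at 4 and 2 weeks and 9.41% and 5.80% in sponge at 4 and 2 weeks. In C8 it was 37.7% in silk at 2 weeks (25.6 to 51.0), not below C7, and 17.2% and 14.4% in sponge at 4 and 2 weeks. In fibroblasts, which served as the background, it was 0.905% and 3.88% in silk at 4 and 2 weeks and 2.80% and 1.82% in sponge at 4 and 2 weeks. C7 was therefore above background in all 4 libraries and not uniform within any of them.

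Among the thinned C7 cells, those with an Mmp12 UMI more often held an Lpl UMI than those without one, at 89.1% against 57.1% in silk at 4 weeks, 78.0% against 38.7% in silk at 2 weeks, 80.9% against 50.3% in sponge at 4 weeks and 84.3% against 51.9% in sponge at 2 weeks. The share with an Mt3 UMI differed in the same direction, at 7.25% against 0.461% in silk at 4 weeks and 18.8% against 5.42% in sponge at 4 weeks. Itgax was found in 45.3% against 28.6% in silk at 4 weeks and in 23.9% against 12.5% in sponge at 2 weeks, and Ctsk in 41.3% against 27.6% and in 36.7% against 21.2% in the same libraries. At least 4 of the 7 markers were seen together in 41.4% and 28.7% of thinned C7 cells in silk at 4 and 2 weeks and in 39.6% and 25.5% in sponge at 4 and 2 weeks, against 1.31% to 6.33% of the other myeloid cells. In C6 alone the share was 3.27% and 8.03% in silk at 4 and 2 weeks and 5.96% and 2.10% in sponge at 4 and 2 weeks. The 7 markers are those of C7, so these shares describe it and test nothing.

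The stretch before the start of Mmp12 is shown because the gene names the subcluster and has more than 1 annotated start. RefSeq (GRCm38.p6) gives a start after chr9:7344147-7344396 and another after chr9:7347124-7347373, both on the plus strand. The AP-1 motif TGANTCA, searched on both strands, was in the 250 bases before the second of these starts and not in those before the first. Capitals mark the motif, whose first base is at -44 from the start, and the motif was present in 6.75% of 32851 such windows of all genes.
Mmp12, first start: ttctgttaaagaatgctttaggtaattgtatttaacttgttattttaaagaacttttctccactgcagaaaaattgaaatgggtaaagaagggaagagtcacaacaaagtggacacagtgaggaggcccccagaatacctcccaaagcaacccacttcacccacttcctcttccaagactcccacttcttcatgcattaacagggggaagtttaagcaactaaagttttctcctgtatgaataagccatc
Mmp12, second start: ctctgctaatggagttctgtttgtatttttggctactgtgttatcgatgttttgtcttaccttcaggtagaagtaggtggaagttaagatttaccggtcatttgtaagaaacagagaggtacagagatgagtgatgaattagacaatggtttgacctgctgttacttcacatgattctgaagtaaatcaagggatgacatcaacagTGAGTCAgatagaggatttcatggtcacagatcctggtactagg
Of the 34 genes higher in C7 (below) that have a RefSeq entry, 6 held this AP-1 motif (17.6%), namely Mmp12, Itgax, Trem2, Prdx1, Cav2 and Ppbp, against 5 of 59 genes lower in C7 (8.47%) and 7.82% of all genes.

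Genes were then counted where the higher of the 2 sums reached 100 UMIs and 50 CPM. By this count 41 of 2793 genes (1.47%) stood at least 2-fold higher in C7 than in the other myeloid cells in all 4 libraries, and 82 (2.94%) stood at least 2-fold lower. With TMM scaling, which lines up the bulk of the genes, 54 stood higher and 68 lower. All 41 genes and all of the 68 were in the corresponding other count. The 7 markers were among the 41.

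Many genes of the lipid-associated list, which includes the markers Lpl and Itgax, stood higher in C7 in every library. Of the measured members of that list, 19 of 22 and 11 of 23 stood at least 2-fold higher in silk at 4 and 2 weeks, and 14 of 23 and 16 of 23 in sponge at 4 and 2 weeks. Of all genes, 2.11% and 0.582% did so in silk at 4 and 2 weeks, and 1.26% and 0.892% in sponge at 4 and 2 weeks. The median log2 ratios were 1.66 and 0.81 in silk at 4 and 2 weeks and 1.31 and 1.25 in sponge at 4 and 2 weeks. Gpnmb (chr6:49036546-49070929, plus strand), a glycoprotein of lysosomes and the cell surface, had 1964 and 659 CPM in C7 of silk at 4 and 2 weeks and 1243 and 1474 CPM in C7 of sponge at 4 and 2 weeks, against 109 to 231 CPM in the other myeloid cells, while the control myeloid cells had 3465 CPM, above every C7 value. Trem2 (chr17:48346401-48354147, plus strand), a lipid-sensing receptor, stood between 446 and 659 CPM in C7 and between 178 and 266 CPM in the other myeloid cells. Lipa, the lysosomal acid lipase that splits cholesteryl esters, stood between 471 and 702 CPM in C7 and between 139 and 188 CPM in the other myeloid cells.

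Spp1 (chr5:104435118-104441050, plus strand), the secreted matrix protein osteopontin, had 3353 and 4615 CPM in C7 of silk at 4 and 2 weeks and 5642 and 11436 CPM in C7 of sponge at 4 and 2 weeks. In the rest of the myeloid class Spp1 had 472 and 2774 CPM in silk at 4 and 2 weeks and 1609 and 2753 CPM in sponge at 4 and 2 weeks. Apoe, which carries cholesterol out of cells, did not follow the list. It had 3084 and 2701 CPM in C7 of silk at 4 and 2 weeks and 1969 and 2866 CPM in C7 of sponge at 4 and 2 weeks, against 2456 to 5334 CPM in the other myeloid cells and 16189 CPM in the control. Mfge8, a bridging protein for the uptake of dying cells, had 1038 and 166 CPM in C7 of silk at 4 and 2 weeks and 420 and 339 CPM in C7 of sponge at 4 and 2 weeks, against 8.55 to 58.7 CPM in C6.

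Genes for acid breakdown and for proteases were higher to a smaller degree. The lysosome list had medians of 0.59 and 0.39 in silk at 4 and 2 weeks and 0.50 and 0.32 in sponge at 4 and 2 weeks. In a library 4 to 8 of its 40 members stood at least 2-fold higher, where 0.582% to 2.11% of all genes did. Ctsd, the lysosomal aspartic protease, stood between 2878 and 4035 CPM in C7 and between 1120 and 1822 CPM in the other myeloid cells. Atp6v0d2, a proton pump subunit known from osteoclasts, where it also takes part in fusion, had 214 and 110 CPM in C7 of silk at 4 and 2 weeks and 193 and 205 CPM in C7 of sponge at 4 and 2 weeks, against 34.3 to 64.2 CPM in the other myeloid cells. Of the other metalloproteinases, Mmp19 stood at 939 to 1550 CPM in C7 and at 896 to 1741 CPM in C6, so that it did not separate these subclusters as Mmp12 did. Mmp14, which is anchored in the membrane, stood at 307 to 450 CPM in C7 and at 249 to 506 CPM in C6.

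Antioxidant genes under the factor NRF2 had list medians of 0.30 and 0.25 in silk at 4 and 2 weeks and 0.37 and 0.22 in sponge at 4 and 2 weeks. Prdx1, which removes peroxides, stood between 4172 and 5179 CPM in C7 and between 929 and 2254 CPM in the other myeloid cells. Gclm, a subunit of the enzyme that limits glutathione synthesis, stood between 172 and 307 CPM in C7 and between 58.3 and 130 CPM in the other myeloid cells. The list was mixed, since Gsr, Prdx6 and Nfe2l2, the gene of NRF2 itself, stood lower in C7 in all 4 libraries. In the 250 bases before the starts, the antioxidant-element core TGACNNNGC was present for 6 of 19 genes of that list (31.6%), for 4 of 34 genes higher in C7 (11.8%) and for 11.5% of all genes.

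Some genes higher in C7 are better known from other tissues. Cav1 (chr6:17306335-17341452, plus strand), the coat protein of caveolae, had 243 and 458 CPM in C7 of silk at 4 and 2 weeks and 330 and 255 CPM in C7 of sponge at 4 and 2 weeks. Cav1 had 44.1 to 131 CPM in the other myeloid cells, while the control myeloid cells had 2.57 CPM and fibroblasts 331 to 489 CPM. For Col1a1, a collagen gene of fibroblasts, the C7 level was 0.0676% to 0.662% of the fibroblast level in the same library. F7, the gene of coagulation factor VII, stood between 251 and 269 CPM in C7 of the 4 libraries and between 36.3 and 84.5 CPM in the other myeloid cells. Pdpn, the gene of podoplanin, stood between 298 and 853 CPM in C7 and between 70.5 and 308 CPM in the other myeloid cells. Hvcn1, a proton channel, and Ncf1, a subunit of the phagocyte oxidase, were also among the 41.

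Some genes of a list of fusion and osteoclast-like genes, called the fusion list here, stood higher in C7, with smaller list medians than the lipid-associated genes. Its leading higher members were Ctsk, Atp6v0d2 and Cd9. Ctsk is one of the 7 markers, so its place among the higher members was set in advance. The fusion list had medians of 0.39 and 0.26 in silk at 4 and 2 weeks and 0.30 and 0.10 in sponge at 4 and 2 weeks, and in the same order 6 of 26 and 4 of 28, then 7 of 28 and 5 of 29 measured members stood at least 2-fold higher, where 2.11%, 0.582%, 1.26% and 0.892% of all genes did. Dcstamp (chr15:39745930-39760938, plus strand), a membrane protein without which osteoclasts and giant cells do not fuse, had 71.0 and 57.4 CPM in C7 of silk at 4 and 2 weeks and 66.1 and 39.1 CPM in C7 of sponge at 4 and 2 weeks. The other myeloid cells had 23.0 and 26.3 CPM in silk at 4 and 2 weeks and 33.8 and 8.93 CPM in sponge at 4 and 2 weeks, and C9 had 67.0 and 114 CPM in silk at 2 weeks and sponge at 4 weeks. At 1000 UMIs a cell, a Dcstamp UMI was found in 5.88% (exact interval 3.97 to 8.34) and 5.53% (4.87 to 6.24) of C7 cells in silk at 4 and 2 weeks and in 5.81% (4.84 to 6.90) and 4.38% (3.26 to 5.75) in sponge at 4 and 2 weeks, against 0.637% to 2.16% of the other myeloid cells. Without thinning, the C7 shares were 27.6% and 19.2% in silk at 4 and 2 weeks and 20.7% and 17.6% in sponge at 4 and 2 weeks, and fibroblasts had 0% to 1.80%, where 0 of 276 cells allows a share of up to 1.09%. Large multinucleated giant cells do not enter droplets, and none is described here.

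Ocstamp, the partner of Dcstamp in fusion, stood at 7.49 to 15.9 CPM in C7. Acp5, the tartrate-resistant acid phosphatase of osteoclasts, stood at 214 to 266 CPM in C7, against 78.1 to 194 CPM in the other myeloid cells. Mmp9, the gelatinase of osteoclasts, had 103 and 45.0 CPM in C7 of silk at 4 and 2 weeks and 51.4 and 75.5 CPM in C7 of sponge at 4 and 2 weeks. In sponge at 2 weeks the cycling subcluster C8 had 1096 CPM of Acp5, 1372 CPM of Mmp9 and 80.8 CPM of Ocstamp, above C7 for each gene. Few C7 cells held a UMI of Mki67, a gene of dividing cells. Without thinning the share was 2.22% and 1.5% in silk at 4 and 2 weeks and 0.914% and 1.34% in sponge at 4 and 2 weeks. The other myeloid cells had 2.51% to 4.10%, but they include C8, which held 45 of their 77 cells with an Mki67 UMI in silk at 2 weeks. In sponge at 4 and 2 weeks C8 held 63 of 85 and 92 of 241 such cells. After thinning, 0 of 1119 C7 cells in sponge at 2 weeks held an Mki67 UMI. Of 5813 other myeloid cells there 69 did, 37 of them in C8. In sponge at 4 weeks it was 1 of 2067 C7 cells and 20 of 2126 others, 14 of them in C8. In silk at 2 weeks it was 11 of 4450 and 18 of 2434, 14 of them in C8. The thinned share in C7 was thus lower than outside C8 in the sponge libraries and not in silk at 2 weeks. C8 was not separated in silk at 4 weeks, and these differences were not tested.

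The genes lower in C7 were led by Plac8 and Ly6c2 of the monocyte list, followed by Ccl5, the monocyte gene Ms4a4c and Ccr7. Summed, the 10 monocyte markers stood at 2826 to 4565 CPM in C7 and at 4825 to 6549 CPM in the other myeloid cells. They stood at 4388 to 6415 CPM in C6 and at 10168 to 14814 CPM in C3. S100a4 of that list went the other way and stood higher in C7. The monocyte list had medians of -2.84 and -2.73 in silk at 4 and 2 weeks and -2.71 and -2.70 in sponge at 4 and 2 weeks, and 7 to 9 of its members stood at least 2-fold lower in a library, where 4.45% and 1.97% of all genes did in silk at 4 and 2 weeks and 3.29% and 2.66% in sponge at 4 and 2 weeks. Plac8 had 1.51 and 11.6 CPM in C7 of silk at 4 and 2 weeks and 6.57 and 13.6 CPM in C7 of sponge at 4 and 2 weeks, against 756 to 1118 CPM in the other myeloid cells. Ly6c2, the surface antigen of inflammatory monocytes, stood at 2.59 to 10.3 CPM in C7 and at 321 to 512 CPM in the other myeloid cells, where C3 carried most of it at 1257 to 1705 CPM. Ccr2, the receptor that draws monocytes out of the blood, had 167 and 94.7 CPM in C7 of silk at 4 and 2 weeks and 62.4 and 45.2 CPM in C7 of sponge at 4 and 2 weeks. Outside C7, Ccr2 had 525 and 434 CPM in myeloid cells in silk at 4 and 2 weeks and 317 and 302 CPM in sponge at 4 and 2 weeks.

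Interferon-induced genes, antigen presentation genes and inflammatory cytokine genes were lower in C7 as well. The type I interferon list had medians of -1.05 and -1.12 in silk at 4 and 2 weeks and -1.12 and -1.17 in sponge at 4 and 2 weeks. At least 2-fold lower stood 15 of 30 and 21 of 35 members in silk at 4 and 2 weeks and 22 of 35 and 24 of 35 in sponge at 4 and 2 weeks. Of all genes, 1.97% to 4.45% did so in a library. Isg15, which encodes an interferon-induced relative of ubiquitin, stood at 6.47 to 42.3 CPM in C7 and at 52.9 to 251 CPM in the other myeloid cells. The list of MHC class II presentation had medians between -1.35 and -0.95. H2-Aa, a class II chain, stood at 577 to 1998 CPM in C7, at 2113 to 4071 CPM in the other myeloid cells and at 7102 to 7993 CPM in C9, which is counted among the other myeloid cells.

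The list of classical inflammation had medians of -0.55 and -0.59 in silk at 4 and 2 weeks and -0.76 and -1.35 in sponge at 4 and 2 weeks. Il1b, an inflammatory cytokine, had 392 and 744 CPM in C7 of silk at 4 and 2 weeks and 236 and 355 CPM in C7 of sponge at 4 and 2 weeks. Outside C7, Il1b had 1151 and 1552 CPM in myeloid cells in silk at 4 and 2 weeks and 1521 and 2369 CPM in sponge at 4 and 2 weeks. Nos2, the inducible nitric oxide synthase, was at or under 2.77 CPM in C7 of all 4 libraries, against 114 CPM in the other myeloid cells of sponge at 2 weeks. Cxcl3, a neutrophil-attracting chemokine, went the other way, at 544 to 1215 CPM in C7 and at 89.2 to 547 CPM in the other myeloid cells.

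**Figure D3:**
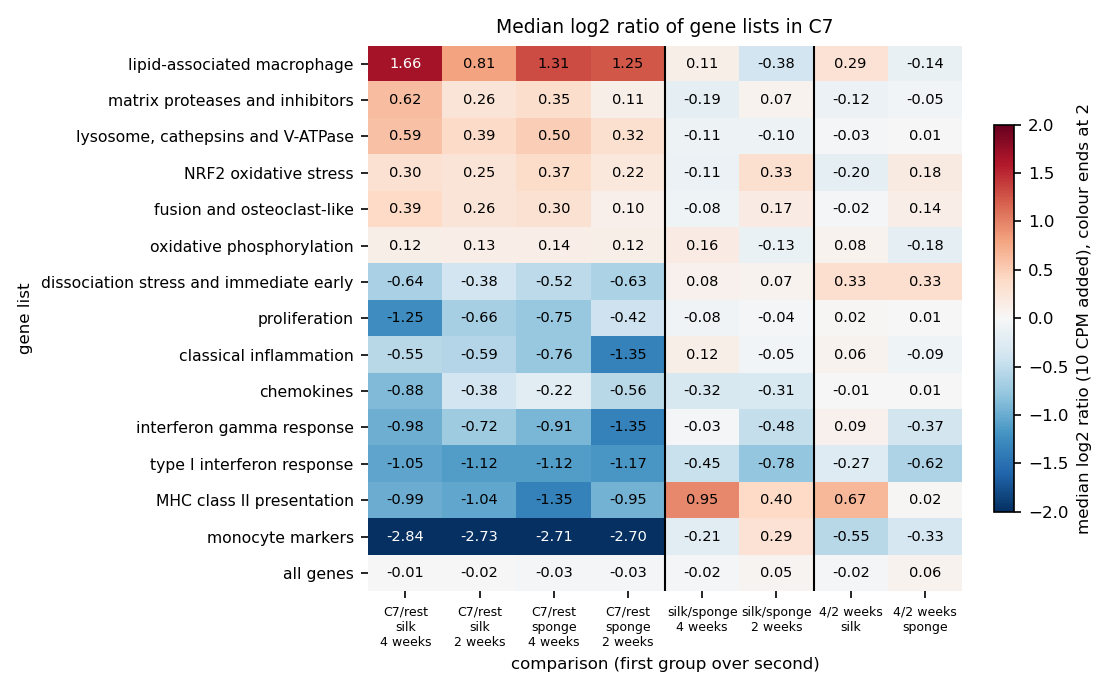
Median log2 ratio (10 CPM added) of each gene list in C7, with lists down the side and comparisons across the top as first group over second. The lipid-associated list was between 0.81 and 1.66 and the monocyte list between -2.84 and -2.70 against the other myeloid cells, and the silk columns show MHC class II genes at 0.95 and 0.40 and type I interferon genes at -0.45 and -0.78 at 4 and 2 weeks.

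Silk was then set against sponge within C7 at matched times, which asks whether the same subcluster carried different transcripts on different material. Of 2845 genes measured at both times, 3 (0.105%) stood at least 2-fold higher in silk both times and 7 (0.246%) stood at least 2-fold lower. The 3 were Lyz1, Hp and Cx3cr1, and the 7 were Ctsl, Ccl2, Ccl7, Col3a1, Col1a2, Col1a1 and Sparc. The other genes did not differ at least 2-fold the same way at both times.

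Lyz1 (chr10:117287797-117292868, minus strand), a lysozyme that cuts bacterial walls and is best known from Paneth cells, had 3073 and 633 CPM in silk at 4 and 2 weeks and 1058 and 294 CPM in sponge at 4 and 2 weeks. Silk was higher at each time, with a log2 ratio of 1.54 at 4 weeks (1.5 to 1.57) and 1.11 at 2 weeks (1.06 to 1.16). Lyz1 is nearly identical to its neighbour Lyz2, at 18887 and 17157 CPM in silk at 4 and 2 weeks and 13963 and 13369 CPM in sponge at 4 and 2 weeks, and reads of the pair can be split uncertainly. Without the 5% of cells with the most UMIs, a setting added after the data were seen, the value at 2 weeks was 0.69 (10 CPM added), under 2-fold, and it was 0.93 by the mean of CPM per cell, against 1.08 for all C7 cells.

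Hp (chr8:109575128-109579172, minus strand), the haemoglobin-binding protein haptoglobin, had 106 and 109 CPM in silk at 4 and 2 weeks and 21.9 and 42.1 CPM in sponge at 4 and 2 weeks. The silk values lay above the sponge values, with a log2 ratio of 2.28 at 4 weeks (2.07 to 2.49) and 1.37 at 2 weeks (1.23 to 1.51). Fibroblasts carried more Hp than C7, at 257 and 319 CPM in silk at 4 and 2 weeks and 105 and 375 CPM in sponge at 4 and 2 weeks. Thinned to 1000 UMIs a cell, the value at 2 weeks was 0.62 (10 CPM added). Without cells that held 3 or more UMIs of other classes, Hp was under 2-fold at both times, at 0.91 and 0.72 at 4 and 2 weeks, against 1.86 and 1.19 for all C7 cells. That filter also counted Il7r, which C7 cells carried in every library (above). A narrower list without Il7r and fibroblast markers, described below, gave 1.95 and 1.12 for Hp at 4 and 2 weeks. Cx3cr1 (chr9:119901616-120069879, minus strand), the fractalkine receptor of monocytes and macrophages, had 200 and 132 CPM in silk at 4 and 2 weeks and 91.4 and 38.1 CPM in sponge at 4 and 2 weeks. Its log2 ratio was 1.13 at 4 weeks (1.0 to 1.25) and 1.79 at 2 weeks (1.64 to 1.94), and in C6 it had 290 and 166 CPM in silk at 4 and 2 weeks and 107 and 36.4 CPM in sponge at 4 and 2 weeks.

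MHC class II genes were higher in silk than in sponge within C7. H2-Aa (chr17:34282744-34287823, minus strand) had 1998 and 1058 CPM in silk at 4 and 2 weeks and 710 and 577 CPM in sponge at 4 and 2 weeks. Its log2 ratio was 1.49 at 4 weeks (1.45 to 1.53) and 0.87 at 2 weeks (0.84 to 0.91). Cd74, the invariant chain that escorts class II molecules, had 5091 and 2101 CPM in silk at 4 and 2 weeks and 1763 and 1301 CPM in sponge at 4 and 2 weeks. Over the list, 6 of 12 measured members stood at least 2-fold higher in silk at 4 weeks, where 0.2% of all genes did, and 0 of 12 at 2 weeks, where 0.324% did. The median was 0.95 at 4 weeks and 0.40 at 2 weeks, and the same list in C6 had medians of 1.44 at 4 weeks and 0.42 at 2 weeks. Fibroblasts, which should lack these genes, had 26.4 to 69.9 CPM of H2-Aa.

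The cysteine protease gene Ctsl (chr13:64359337-64370890, minus strand) stood lower in silk, at 1049 and 1795 CPM in silk at 4 and 2 weeks and 2295 and 6667 CPM in sponge at 4 and 2 weeks. Its log2 ratio was -1.13 at 4 weeks (-1.17 to -1.09) and -1.89 at 2 weeks (-1.91 to -1.88), and sponge at 2 weeks had by far the highest level. Ccl2 (chr11:82035571-82037453, plus strand), the chemokine that Ccr2 binds, had 35.6 and 32.2 CPM in silk at 4 and 2 weeks and 83.7 and 341 CPM in sponge at 4 and 2 weeks. Ccl7 (chr11:82045712-82047525, plus strand), its neighbour and a second ligand of Ccr2, had 7.98 and 11.8 CPM in silk at 4 and 2 weeks and 51.8 and 193 CPM in sponge at 4 and 2 weeks. The log2 ratio of Ccl2 was -1.23 at 4 weeks (-1.48 to -1.0) and -3.41 at 2 weeks (-3.50 to -3.31), and that of Ccl7 was -2.68 at 4 weeks (-3.22 to -2.22) and -4.04 at 2 weeks (-4.19 to -3.88). The receptor went the other way, with Ccr2 at 167 and 94.7 CPM in silk at 4 and 2 weeks and 62.4 and 45.2 CPM in sponge at 4 and 2 weeks.

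Fibroblasts of these granulomas carried Ccl2 at 802 to 1527 CPM and Ccl7 at 557 to 903 CPM, and fibroblast transcripts in C7 differed between materials the same way. The C7 level of Col1a1 was 0.0676% and 0.190% of the fibroblast level in silk at 4 and 2 weeks and 0.662% and 0.479% in sponge at 4 and 2 weeks. For Ccl2 it was 4.44% and 2.70% in silk at 4 and 2 weeks and 7.23% and 22.3% in sponge at 4 and 2 weeks. Col1a1 UMIs were present in 13.3% and 21.3% of C7 cells in silk at 4 and 2 weeks and in 54.1% and 55.3% in sponge at 4 and 2 weeks, and in 8.14% and 19.9% of endothelial cells in silk at 4 and 2 weeks and 43.9% and 47.7% in sponge at 4 and 2 weeks. The part of such carried-over transcripts in Col3a1, Col1a2, Col1a1 and Sparc was not tested. Without the cells that held 3 or more UMIs of other classes, which removed 39.7% and 44.9% of C7 cells in silk at 4 and 2 weeks and 75.7% and 80.8% in sponge at 4 and 2 weeks, the value of Ccl2 at 2 weeks was -1.57, that of Ccl7 was -1.68 and that of Ctsl was -0.97, against -3.06, -3.22 and -1.89 for all C7 cells (10 CPM added). At 4 weeks Ccl2 was -0.51 in the same setting, -0.88 in thinned cells, -0.93 by the mean of CPM per cell and -0.64 with 50 CPM added, against -1.04, so that its 2-fold difference at 4 weeks was lost in each of these. Of the 7 genes named as lower in silk, 0 were at least 2-fold lower at both times, with enough UMIs to be counted, without the cells that held UMIs of other classes. At 4 weeks Ccl7 was -1.88 and Ctsl -1.46 in that setting, against -1.78 and -1.12. Ccl7 thus stayed past 2-fold at both times and was left out by the minimum of UMIs and CPM, while Ctsl was just under 2-fold at 2 weeks. For Col1a1, Col1a2 and Col3a1 this was set in advance, since they are themselves among the markers by which cells were removed.

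**Figure D4:**
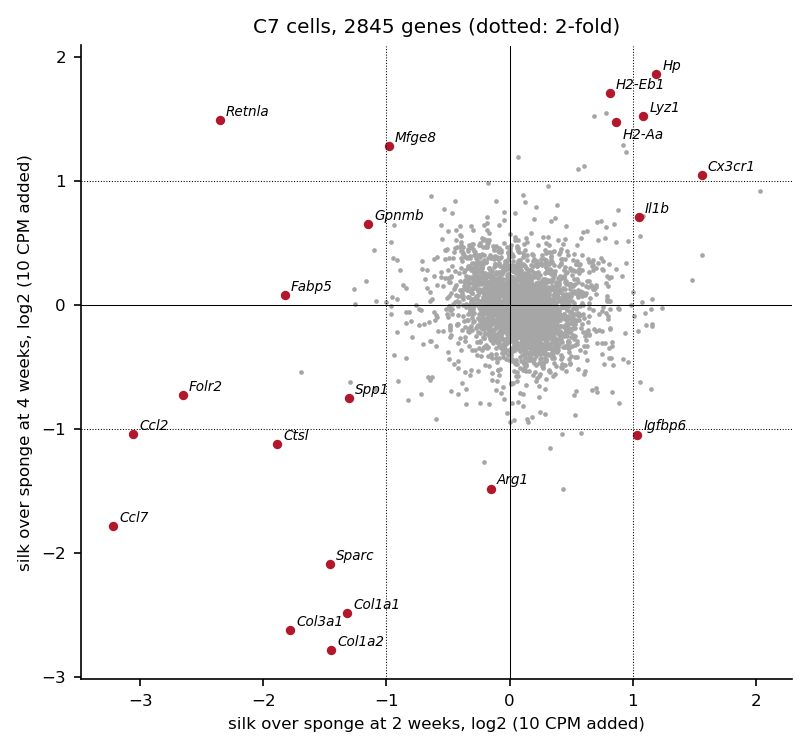
Each point is a gene in C7 cells, with the log2 ratio of silk over sponge at 2 weeks on the horizontal axis and at 4 weeks on the vertical axis (10 CPM added, 2845 genes, dotted lines at 2-fold), and named genes in red. Lyz1, Hp and Cx3cr1 lie past 2-fold at the upper right, Ccl2, Ccl7, Ctsl and fibroblast transcripts at the lower left, and Retnla and Igfbp6 in opposite corners.

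Interferon-induced genes were lower in silk than in sponge within C7, with more members past 2-fold at 2 weeks. Of the type I interferon list, 2 of 33 members stood at least 2-fold lower at 4 weeks, where 0.345% of all genes did, and 8 of 34 at 2 weeks, where 0.465% did. The medians were -0.45 at 4 weeks and -0.78 at 2 weeks, against -0.02 and 0.05 over all genes. In C6 the medians were -0.79 at 4 weeks and -0.92 at 2 weeks, so that C7 was not alone in this direction. Irf7 (chr7:141262706-141266481, minus strand), a factor that switches on interferon genes, had 6.25 and 14.4 CPM in silk at 4 and 2 weeks and 21.3 and 84.4 CPM in sponge at 4 and 2 weeks. Its log2 ratio was -1.74 at 4 weeks (-2.37 to -1.21) and -2.55 at 2 weeks (-2.71 to -2.39). Isg15 (chr4:156199424-156200818, minus strand) had 6.47 and 9.80 CPM in silk at 4 and 2 weeks and 14.3 and 42.3 CPM in sponge at 4 and 2 weeks, with sponge at 2 weeks the highest. Rsad2 (chr12:26442746-26456452, minus strand), the antiviral enzyme viperin, had 10.1 and 14.1 CPM in silk at 4 and 2 weeks and 22.6 and 45.9 CPM in sponge at 4 and 2 weeks.

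The stretches before the starts of Isg15 and Rsad2 are shown because genes of this list stood lower in silk C7 cells at both times. The interferon-response core GAAANNGAAA, searched on both strands in the 250 bases before each RefSeq start (GRCm38.p6), was present for 14 of the 27 list genes with an entry (51.9%), for 8 of 59 genes lower in C7 than in the other myeloid cells (13.6%), for 2 of 34 genes higher in C7 (5.88%) and for 3.46% of 27025 genes. The windows are chr4:156200819-156201068 for Isg15 and chr12:26456453-26456702 for Rsad2, both read on the minus strand, and capitals mark the matches, overlapping ones joined, from -78 for Isg15 and from -120 for Rsad2.
Isg15: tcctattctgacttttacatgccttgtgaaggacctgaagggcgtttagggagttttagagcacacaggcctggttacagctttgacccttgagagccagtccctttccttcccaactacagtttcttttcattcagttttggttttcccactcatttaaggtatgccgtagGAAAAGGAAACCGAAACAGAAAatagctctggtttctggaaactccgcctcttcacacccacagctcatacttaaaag
Rsad2: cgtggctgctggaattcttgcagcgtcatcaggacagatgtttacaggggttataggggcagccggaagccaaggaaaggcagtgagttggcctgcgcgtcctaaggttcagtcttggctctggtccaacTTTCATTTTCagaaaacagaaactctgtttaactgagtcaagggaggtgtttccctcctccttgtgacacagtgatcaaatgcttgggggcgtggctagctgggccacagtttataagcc
A match in letters describes the window and no binding was measured.

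Single genes of lipid handling and other functions stood apart in sponge at 2 weeks, while the medians of the lists given here moved little. At 2 weeks, 1 of 22 genes of lipid uptake and storage stood at least 2-fold higher in silk and 2 stood lower (median -0.11). Of 20 matrix protease and inhibitor genes 1 stood higher and 1 lower (median 0.07). Of all genes, 0.324% stood at least 2-fold higher in silk and 0.465% lower at that time. Fabp5, a fatty acid carrier, had 966 and 948 CPM in silk at 4 and 2 weeks and 913 and 3386 CPM in sponge at 4 and 2 weeks. Fabp4, its relative in fat cells and macrophages, had 40.8 and 30.8 CPM in silk at 4 and 2 weeks and 41.9 and 242 CPM in sponge at 4 and 2 weeks. For both genes sponge at 2 weeks stood apart, and the log2 ratio of silk over sponge was 0.08 for Fabp5 and -0.04 for Fabp4 at 4 weeks but -1.84 for Fabp5 and -2.97 for Fabp4 at 2 weeks. Without cells that held 3 or more UMIs of other classes, Fabp4 at 2 weeks was -1.16, against -2.62 (10 CPM added). Folr2, a folate receptor of resident macrophages, had 29.1 and 26.9 CPM in silk at 4 and 2 weeks and 54.6 and 222 CPM in sponge at 4 and 2 weeks, and its value at 2 weeks was -1.76 in that setting, against -2.65. Spp1 was lower in silk at both times, with a log2 ratio of -0.75 at 4 weeks (-0.78 to -0.73) and -1.31 at 2 weeks (-1.32 to -1.30). Il1b was higher in silk at both times, with a log2 ratio of 0.74 at 4 weeks (0.65 to 0.82) and 1.07 at 2 weeks (1.02 to 1.12), and the value at 2 weeks was 0.22 without the cells that held 3 or more UMIs of other classes. With the narrower list, which does not screen for fibroblast transcripts, the values at 2 weeks were -2.69 for Fabp4, -2.55 for Folr2 and 1.04 for Il1b.

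The last comparison was 4 weeks against 2 weeks within a material. Of 2850 genes measured in both materials, 2 (0.0702%) stood at least 2-fold higher at 4 weeks in both, and 6 (0.211%) stood at least 2-fold lower. Named among them were Lyz1 on the higher side, and Arg1 and Lars2 on the lower side. The gene models Gm26532, Gm42418, AY036118 and Gm10076 were also counted. Each of these gene models differed in the same direction in fibroblasts and endothelial cells of both materials, so they were not particular to C7. For Gm42418 the log2 ratio was -1.44 in silk and -1.10 in sponge in fibroblasts, against -2.01 and -1.55 in C7. For Gm26532 it was 1.06 and 1.26 in fibroblasts, against 1.66 and 1.32 in C7. Lyz1 had log2 ratios of 4 weeks over 2 weeks of 2.28 in silk (2.25 to 2.31) and 1.85 in sponge (1.79 to 1.91), and in C6 the ratios were 3.07 in silk and 1.89 in sponge.

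Arg1 (chr10:24915221-24927484, minus strand), the arginase of alternatively activated macrophages, had 56.9 and 335 CPM in silk at 4 and 2 weeks and 176 and 374 CPM in sponge at 4 and 2 weeks. Its log2 ratio of 4 weeks over 2 weeks was -2.55 in silk (-2.74 to -2.38) and -1.08 in sponge (-1.16 to -1.01), and the level at 4 weeks in silk was the lowest of the 4. The difference in sponge was under 2-fold in 7 other settings, at -0.95 to -0.70 (10 CPM added, or 50 CPM in one of them), against -1.04. Hmox1 (chr8:75093621-75100589, plus strand), the enzyme that breaks down haem, had 368 and 1326 CPM in silk at 4 and 2 weeks and 707 and 1295 CPM in sponge at 4 and 2 weeks. For Hmox1 the log2 ratio was -1.85 in silk (-1.92 to -1.78) and -0.87 in sponge (-0.91 to -0.83), and in fibroblasts it was -1.36 in silk and -1.02 in sponge. Vcan, a large matrix proteoglycan, had 19.2 and 119 CPM in silk at 4 and 2 weeks and 33.8 and 68.3 CPM in sponge at 4 and 2 weeks, and the scavenger receptor gene Msr1 had 207 and 332 CPM in silk at 4 and 2 weeks and 178 and 385 CPM in sponge at 4 and 2 weeks.

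Genes higher at 4 weeks in both materials, though not by 2-fold in each, included Mamdc2, Cd81, Btg2 and Ephx1. Ephx1, an epoxide hydrolase, had 70.7 and 36.7 CPM in silk at 4 and 2 weeks and 62.7 and 21.3 CPM in sponge at 4 and 2 weeks. Cd81, a tetraspanin, had 170 and 67.7 CPM in silk at 4 and 2 weeks and 100.1 and 50.3 CPM in sponge at 4 and 2 weeks. Btg2, an immediate early gene that restrains division, had 147 and 60.3 CPM in silk at 4 and 2 weeks and 122 and 63.4 CPM in sponge at 4 and 2 weeks, and its log2 ratio of 4 weeks over 2 weeks in fibroblasts was 1.32 in silk and 0.77 in sponge. The list of dissociation stress and immediate early genes had a median of 0.33 in C7 of both materials, and the part of that response in these values was not tested.

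Lars2, a mitochondrial leucyl-tRNA synthetase, had 79.8 and 345 CPM in silk at 4 and 2 weeks and 68.3 and 281 CPM in sponge at 4 and 2 weeks. The level was lower at 4 weeks in both materials. Fibroblasts and endothelial cells differed in the same direction. In fibroblasts the log2 ratio of Lars2, 4 weeks over 2 weeks, was -1.41 in silk and -1.36 in sponge, and in endothelial cells it was -1.45 in silk and -1.19 in sponge. This difference was thus present in classes other than C7, and library and time cannot be told apart with 1 library each.

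The same lists were read by time. MHC class II genes had a median of 0.67 for 4 weeks over 2 weeks in silk, with 2 of 12 members at least 2-fold higher where 0.322% of all genes were, and a median of 0.02 in sponge. Type I interferon genes had medians of -0.27 in silk, with 1 of 33 members at least 2-fold lower where 0.313% of all genes were, and -0.62 in sponge, with 4 of 34 where 0.467% were. The 7 markers had medians of 0.64 in silk and 0.45 in sponge, and 2 of 7, Mt3 and Ctsk, stood at least 2-fold higher in sponge, where 0.335% of all genes did. The silk and sponge comparisons use the same 4 libraries as those by time, so the values of both rest on shared cells.

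**Figure D5:**
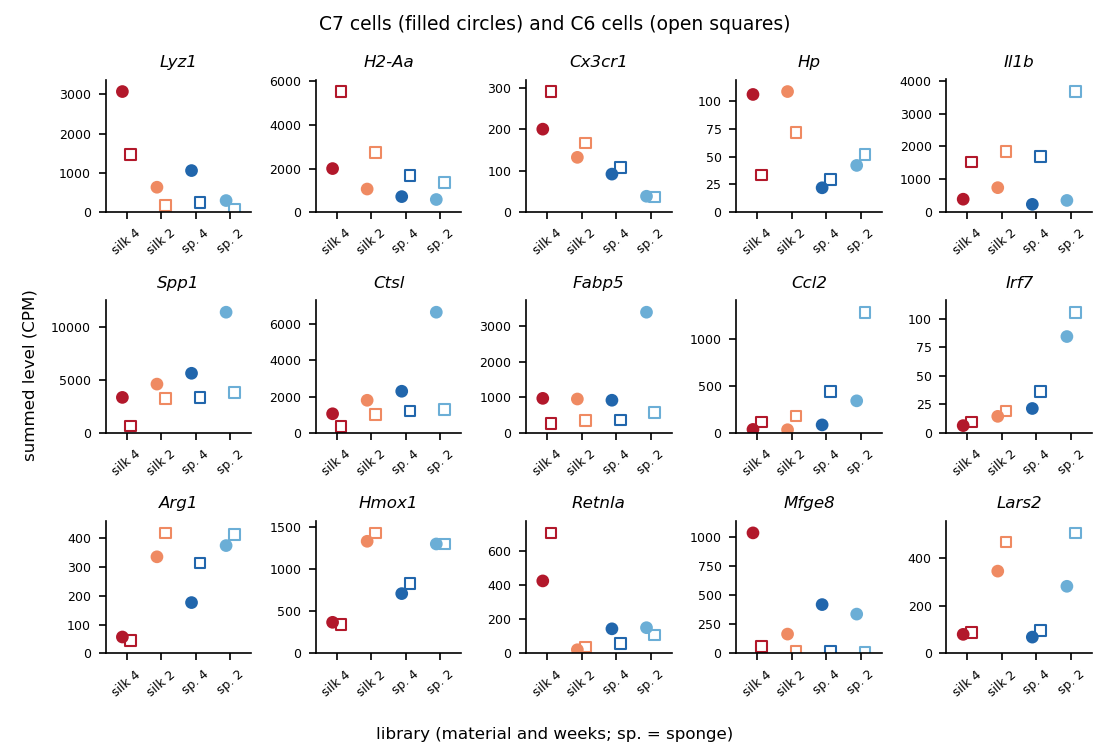
Summed level (CPM) of 15 genes in C7 (filled circles) and C6 (open squares) by granuloma library, from silk at 4 weeks on the left to sponge at 2 weeks on the right. Lyz1 and H2-Aa were highest in silk at 4 weeks, Spp1, Ctsl, Fabp5, Ccl2 and Irf7 in sponge at 2 weeks, and Lars2 stood higher at 2 weeks in both materials and both subclusters.

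Subclusters with at least 50 cells in a library were compared with C7 by the correlation of log levels across genes. C6 had a mean of 0.963 over the 4 libraries, against 0.864 for C3 and 0.839 for C9, and over the 3 libraries that held enough of their cells C4 had 0.936, C5 0.932 and C8 0.930. C6 was the highest in each library except sponge at 2 weeks, where C4 had 0.955 and C6 0.953. Genes are not independent replicates, and the levels share library and depth, so that these values are descriptions. C7 stood above C6 in Mt3, at 93.3 to 346 CPM against 4.69 to 28.1 CPM, in Gpnmb, at 659 to 1964 CPM against 39.2 to 114 CPM, and in Trem2, at 446 to 659 CPM against 156 to 268 CPM. C7 stood below C6 in Il1b, at 236 to 744 CPM against 1528 to 3674 CPM, in Thbs1, at 182 to 582 CPM against 1467 to 3507 CPM, and in H2-Aa, at 577 to 1998 CPM against 1355 to 5536 CPM. C6 cells held a median of 948 to 1720 UMIs, and their lower depth was not matched in these sums.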

How the data were processed

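Single cells of 5 mouse libraries were profiled with a droplet 3' kit, per the labels. A table of raw UMI counts of 21617 genes by 41191 cells was deposited by the authors, with the library, class and subcluster of each cell and its percent of mitochondrial UMIs as deposited by the authors. Per the submitters' processing notes, Cell Ranger 3.0.0, Seurat 3.0 and mm10 were used, with no role given for each. How cells were filtered and doublets treated is not given in the sources used here.

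Counts of C7 cells were summed per library and scaled to CPM (Python 3.11.15, pandas 2.3.3, scipy 1.17.1). Log2 ratios of named genes have 0.5 counts added and a conditional binomial 95% interval. Counts of genes and list medians used log2 ratios with 10 CPM added, a 2-fold limit, and a minimum in the higher library of 100 UMIs and 50 CPM for genes, or of 20 UMIs over both libraries for lists. Shares carry exact Clopper-Pearson intervals and differences of shares Newcombe intervals, all for counting error only. With 1 library per group no test across libraries was run and no p-value was computed. TMM scaling used edgeR 4.0.16 for its factors alone. The sums and counting steps were checked on simulated data.

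The members and the 41 gene lists were chosen with earlier results of these data known. Genes were named by a rule, namely the 7 markers, the genes ranked highest and lowest by their smallest change over the contrasts of a comparison, those of largest opposite change, and leading members of each list, 358 in all. Gene positions come from GENCODE M21 (GRCm38), and promoter sequences from RefSeq. A total of 9 other settings were tried beside the one reported. Values of 1 counted gene are not reported here.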

Additional observations from a re-analysis of the deposited data

Results flagged for a closer look

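Retnla, a secreted protein of alternatively activated macrophages, differed between silk and sponge in opposite directions at the 2 times. It had 424 and 21.3 CPM in C7 of silk at 4 and 2 weeks and 144 and 150 CPM in C7 of sponge at 4 and 2 weeks. The log2 ratio of silk over sponge was 1.5 at 4 weeks and -2.35 at 2 weeks (10 CPM added), and it was 3.14 and -3.65 without cells that held 3 or more UMIs of other classes. The other myeloid cells had 739 and 47.2 CPM in silk at 4 and 2 weeks and 243 and 119 CPM in sponge at 4 and 2 weeks, so that they were also lowest in silk at 2 weeks. The difference between the times was not tested, since each value is 1 library.

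Igfbp6, which binds insulin-like growth factors, had 21.8 and 50.2 CPM in C7 of silk at 4 and 2 weeks and 55.5 and 19.3 CPM in C7 of sponge at 4 and 2 weeks. Its log2 ratio of silk over sponge was -1.04 at 4 weeks and 1.04 at 2 weeks (10 CPM added), or -0.78 and 0.72 in cells thinned to 1000 UMIs, and the difference between the times was not tested. Fibroblasts of the same libraries had 3256 and 1068 CPM in silk at 4 and 2 weeks and 1697 and 1177 CPM in sponge at 4 and 2 weeks, and the part of their transcripts in the C7 values was not tested.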

How the results depend on the processing

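No paired analysis was possible because each group is 1 library, so that the groups share fewer than 2 replicate numbers. The C7 share among all cells of a library was 26.5% and 43.6% in silk at 4 and 2 weeks and 27.0% and 9.09% in sponge at 4 and 2 weeks. Among myeloid cells with at least 1000 UMIs it was 54.2% and 64.6% in silk at 4 and 2 weeks and 49.3% and 16.1% in sponge at 4 and 2 weeks. Without C9 in the denominator it was 60.7% in silk at 2 weeks and 45.1% in sponge at 4 weeks, and with at most 10% mitochondrial UMIs it was 60.8% in silk at 2 weeks. The order at 2 weeks, silk above sponge, held in each of these settings, and the difference at 4 weeks was -0.502 points over all cells (-2.69 to 1.77) and 4.91 points with at most 10% mitochondrial UMIs (1.44 to 8.38).

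Counts of genes depended on the settings. Silk against sponge gave 0 higher and 2 lower with 50 CPM added, 1 higher in cells thinned to 1000 UMIs, 1 higher without the 5% of cells with the most UMIs, and 2 lower without cells holding 3 or more UMIs of other classes, of which 0 were among the 7 reported. Against 2 weeks, 1 gene was higher at 4 weeks with 50 CPM added, in thinned cells, with TMM scaling and by the mean of CPM per cell, and 4 were higher without cells holding UMIs of other classes. C7 against the other myeloid cells gave 21 higher and 41 lower with 50 CPM added, 19 higher and 33 lower in thinned cells, and 17 higher by the mean of CPM per cell. The lists of the filter on UMIs of other classes hold Col1a1, Col1a2 and Col3a1, so the loss of these genes from the count was set in advance. Ccl7 was lost by the minimum of UMIs and CPM and not by its ratios. A narrower list, also added after the data were seen, leaves out Il7r, Cd2, S100a8, S100a9, Csf3r and every fibroblast marker. It removed 2.62% and 1.77% of C7 cells in silk at 4 and 2 weeks and 1.59% and 3.21% in sponge at 4 and 2 weeks. With it, 3 genes stood higher and 6 lower in silk at both times, all of them among those reported. The narrower list cannot screen for fibroblast transcripts, and the part of each gene in the cells removed was not tested. TMM scaling moved the median of all genes in silk over sponge at 2 weeks to 0.02, against 0.11, and the split of 2-fold genes to 15 higher and 32 lower, against 23 and 21. For 4 weeks over 2 weeks in sponge it gave 21 higher and 29 lower, against 29 and 21, and for C7 over the other myeloid cells in silk at 2 weeks 73 higher and 75 lower, against 53 and 105.

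Of the values of single genes, Cd5l, a secreted protein of resident macrophages, turned its direction without cells holding UMIs of other classes, to 0.0993 for silk over sponge at 2 weeks, against -1.19, and to 0.0051 for 4 weeks over 2 weeks in sponge, against -1.31. With the narrower list the values of Cd5l were -1.22 and -1.35 in the same order. The cause was not tested. Silk at 4 weeks had the fewest C7 cells and UMIs, and the intervals there are the widest.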

Other observations

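Further genes of C7 went opposite ways in the 2 materials or at the 2 times, without reaching 2-fold in each contrast when 10 CPM was added to both sides. Mfge8, the bridging protein for dying cells, had a log2 ratio of silk over sponge of 1.30 at 4 weeks (95% interval 1.25 to 1.36) and -1.02 at 2 weeks (-1.08 to -0.96) from the counts, and of -0.98 at 2 weeks with 10 CPM added. Its ratio of 4 weeks over 2 weeks was 2.64 in silk (2.59 to 2.70) and 0.31 in sponge (0.25 to 0.37). With 10 CPM added, the value for silk over sponge at 4 weeks was 1.28 for all C7 cells, 2.49 without the 5% of cells with the most UMIs and 0.72 without cells that held 3 or more UMIs of other classes, and the last setting gave 1.43 for 4 weeks over 2 weeks in silk, against 2.57. With the narrower list these values were 1.52 for silk over sponge at 4 weeks and 2.52 for 4 weeks over 2 weeks in silk. Fibroblasts stood at 182 and 172 CPM of Mfge8 in silk at 4 and 2 weeks, so that the level in C7 of silk at 4 weeks was above theirs and that at 2 weeks was not.

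C1qb, a subunit of the complement starter C1q, had 1018 and 549 CPM in C7 of silk at 4 and 2 weeks and 644 and 1061 CPM in C7 of sponge at 4 and 2 weeks. Its log2 ratio of silk over sponge was 0.66 at 4 weeks (0.61 to 0.71) and -0.95 at 2 weeks (-0.98 to -0.92). Cebpb, a transcription factor of inflammatory macrophages, had 918 and 2405 CPM in C7 of silk at 4 and 2 weeks and 1498 and 1350 CPM in C7 of sponge at 4 and 2 weeks. Cxcl3 was also highest in silk at 2 weeks, with 633 and 1215 CPM in C7 of silk at 4 and 2 weeks and 1018 and 544 CPM in C7 of sponge at 4 and 2 weeks. With 1 library each, material and time cannot be told apart from the library.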
